A study of Homo sapiens with 6 samples.

Results

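The small nucleolar RNA (snoRNA) host genes are a family of long noncoding genes whose introns carry snoRNAs. The 10 genes GAS5, SNHG1, SNHG3, SNHG5, SNHG6, SNHG7, SNHG8, SNHG12, SNHG15 and SNHG16 were chosen by name, with earlier results of these data known. All 10 have a row among the 20333 gene intervals of the count table, and all 10 passed the rule of at least 10 counts in a library. The assay was precision run-on sequencing of nuclei (PRO-seq), which reads nascent RNA from polymerases that are engaged on DNA at the time of permeabilisation. T47D, an established line of luminal breast cancer, was used throughout; it is labelled ERpos HER2neg (estrogen receptor positive, HER2 negative), and was kept in growth factor-complete medium. The control arm received DMSO, and the treated arms received either 500 nM GDC0068, a catalytic AKT inhibitor, or 100 nM INY-05-040, an AKT degrader labelled Degrader. All arms lasted 5 h and had 2 libraries each, from 2 independent experiments. A single cell line was used, and the drug doses differ by design, having been set for comparable suppression of downstream signalling.

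A snoRNA guides chemical modification or cleavage of ribosomal RNA. Box C/D snoRNAs direct 2′-O-methylation, and box H/ACA snoRNAs direct pseudouridylation. In human cells most of them are cut out of introns, so that transcription of the host gene sets their supply. The spliced host RNA of the noncoding hosts is often short-lived, since nonsense-mediated decay removes it when it is translated. Many hosts start with a C followed by a tract of pyrimidines, the 5′ terminal oligopyrimidine feature that they share with ribosomal protein genes. AKT lies upstream of mTORC1, which controls the translation of RNAs with that feature.

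The hosts lie on 8 chromosomes, 3 of them on chromosome 1. Their intervals hold 35 snoRNA genes of the RefSeq annotation, 25 of box C/D and 10 of box H/ACA, with at least 1 in each host. SNHG1, SNHG5, SNHG6 and SNHG16 hold box C/D snoRNAs only. SNHG3, SNHG7, SNHG8 and SNHG15 hold box H/ACA snoRNAs only. GAS5 and SNHG12 hold both kinds. The deposited intervals on chromosome 1 are chr1:173863901-173867989 (minus strand, GAS5, ENSG00000234741), chr1:28506043-28510892 (plus, SNHG3, ENSG00000242125) and chr1:28578538-28581857 (minus, SNHG12, ENSG00000197989). SNHG1 (ENSG00000255717) lies at chr11:62851988-62855885, SNHG5 (ENSG00000203875) at chr6:85660950-85678733, SNHG7 (ENSG00000233016) at chr9:136724658-136728184 and SNHG15 (ENSG00000232956) at chr7:44983023-44986653, all on the minus strand. SNHG8 (ENSG00000269893) lies at chr4:118278758-118279823 and SNHG16 (ENSG00000163597) at chr17:76557769-76565321, both on the plus strand. The submitters' processing notes name hg38 and GRCh38, both names of the same build. The intervals are short, with a median of 3811 bp against 13766 bp over the whole table, and range from 1066 bp (SNHG8) to 17784 bp (SNHG5).

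RefSeq promoter entries were found for 8 of the hosts, and in 6 of these the RefSeq start lies within 20 bases of the start of the deposited interval. The stretches around these 6 starts are shown because they are where the pyrimidine feature described above would lie. Each run gives 45 bases before the start and 20 from it, 5′ to 3′ on the strand of the gene (GRCh38.p14). Capitals mark TATAA located 15 to 45 bases before the start. The first tract whose C lies within 10 bases of the start is marked as well. A tract is a C followed by at least 4 letters that are each C or T. Later tracts are left in lower case, and in SNHG7 the run of pyrimidines begins before the capitals.
SNHG1: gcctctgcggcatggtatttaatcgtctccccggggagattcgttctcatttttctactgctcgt
SNHG5: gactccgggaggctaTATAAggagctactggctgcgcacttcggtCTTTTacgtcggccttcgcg
SNHG7: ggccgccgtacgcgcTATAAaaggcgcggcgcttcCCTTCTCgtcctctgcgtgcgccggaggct
SNHG8: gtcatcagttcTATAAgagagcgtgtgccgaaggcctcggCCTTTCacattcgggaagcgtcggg
SNHG12: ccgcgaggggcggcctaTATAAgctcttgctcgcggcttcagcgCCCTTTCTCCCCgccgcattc
SNHG16: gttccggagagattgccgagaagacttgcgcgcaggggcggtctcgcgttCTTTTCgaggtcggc

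The runs lie at chr11:62855866-62855930 (minus, SNHG1), chr6:85678714-85678778 (minus, SNHG5), chr9:136728165-136728229 (minus, SNHG7), chr4:118278717-118278781 (plus, SNHG8), chr1:28581854-28581918 (minus, SNHG12) and chr17:76557719-76557783 (plus, SNHG16). A pyrimidine tract with its C within 10 bases of the start was found in 5 of the 6, the exception being SNHG1, and in 33.5% of all 35116 RefSeq promoters. TATAA was found in SNHG5, SNHG7, SNHG8 and SNHG12, in each case on the strand of the gene, and in 5.04% of all promoters when both strands were searched. All 4 of these hosts also carry the tract, a combination present in 1.34% of all promoters with TATAA on the strand of the gene. In SNHG5, SNHG7, SNHG8 and SNHG12 the TATAA and the tract do not overlap. The E-box CACGTG, which reads the same on both strands, was present within the 300 bases around the start in SNHG7 alone of the 6 and in 7.26% of all promoters. The TATAA and tract searches were chosen after the letters had been seen, so these shares are descriptions.

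Total counts ranged from 25371819 to 32192576 per library, and the 10 hosts together took 0.102% to 0.127% of them. A host had between 676 and 10201 counts in a library, at which counting error alone is 3.85% and 0.99%. These are bulk libraries, in which fewer transcribing cells and less transcription per cell cannot be told apart. All 9 luminal markers examined, among them ESR1, GATA3 and KRT8, had rows, with a sum between 5334 and 5745 CPM (counts scaled to library size) in every library. TFF1 was the lowest of them, at 4.08 to 5.84 CPM, where the median of all genes tested was 24.6 CPM in DMSO. KRT5, KRT14, VIM, TP63, PTPRC, CD3E, COL1A1, COL1A2, PECAM1 and CDH5, markers of other cell types, had no row in the table used here. No spike-in was applied here, so each change is relative to the bulk of genes.

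In DMSO the hosts were among the intervals with the most counts per kb. Their intervals are short, and the counted part of a gene is not given in the sources used here. By CPM without division by length, the hosts stood above 57.4% (SNHG8) to 98.8% (SNHG3) of genes. The median density of the hosts was 23.9 CPM per kb of interval, against 1.69 over the 19902 genes tested. SNHG3 stood highest, with 65.5 and 67.3 CPM per kb in the DMSO libraries, above 99.1% of genes. SNHG7 followed with 63.7 and 64.2, GAS5 with 38.6 and 38.9, SNHG8 with 29.1 and 31.7, SNHG1 with 24.5 and 27.2, SNHG12 with 21.6 and 22.2 and SNHG6 with 19.8 and 20.3 CPM per kb. SNHG16 (9.78 and 10.6 CPM per kb) and SNHG15 (10.05 and 10.13) overlapped in DMSO, and no other neighbours in this order did. SNHG5 was the least dense, with 7.81 and 8.33 CPM per kb over its long interval, still above 89.7% of genes.

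**Figure D1:**
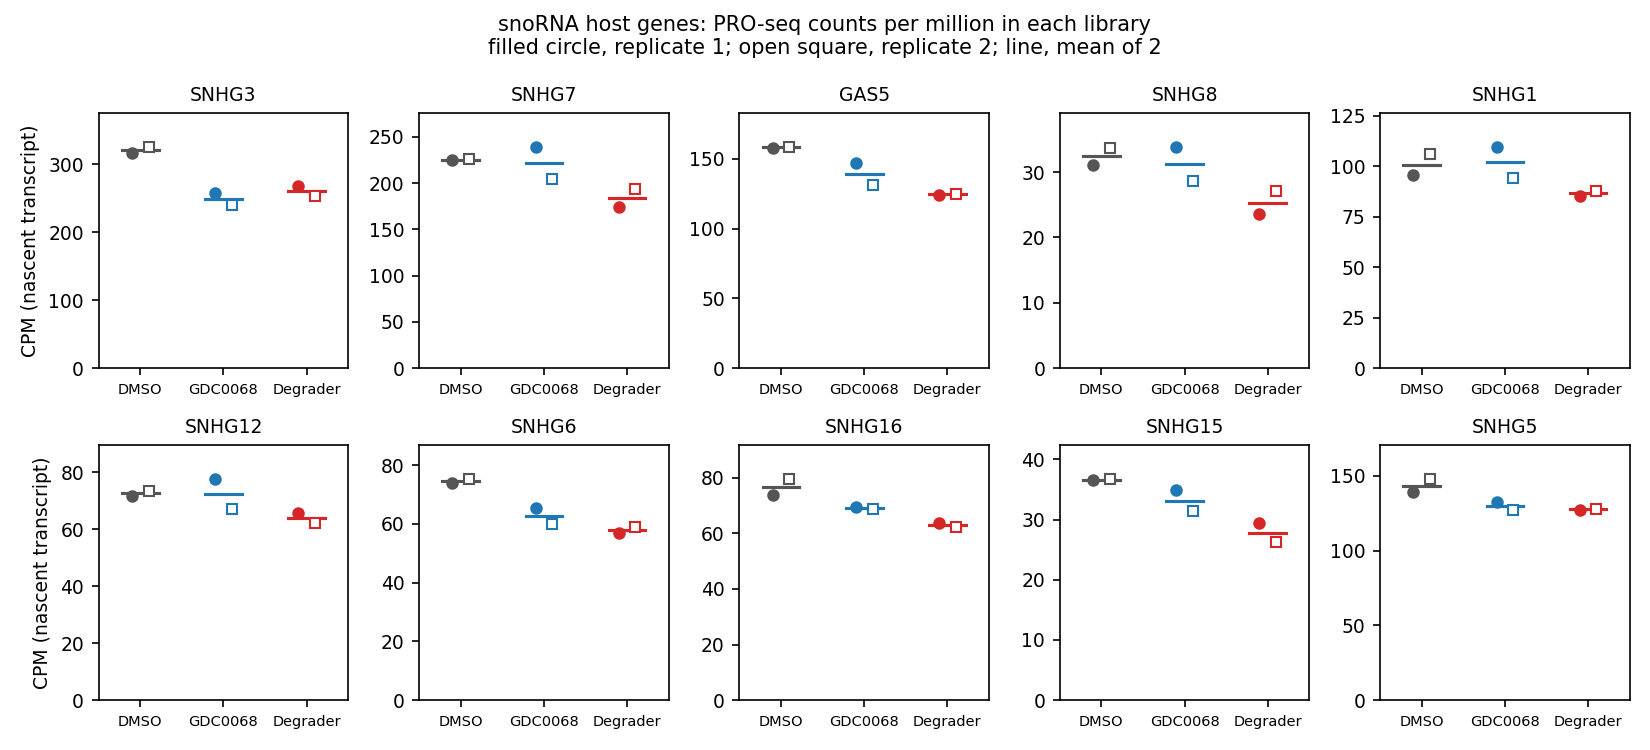
Level in CPM (counts scaled to library size) of each host gene in the 6 libraries, with a filled circle for replicate 1, an open square for replicate 2 and a line at the mean of the 2; the vertical axes start at 0 and differ between genes, which are ordered by density in DMSO. In all 10 genes both Degrader libraries lie below both DMSO libraries, while under GDC0068 this holds for 6 genes.

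Under Degrader, transcription of the host genes was lower throughout. All 10 had a negative log2 fold change against DMSO, from -0.40 (SNHG15) to -0.17 (SNHG5), with a median of -0.30, where the median of all genes tested was 0.00. Of the 10, 8 fell (edgeR adjusted p under 0.05 over all genes), and the other two, SNHG1 and SNHG12, had log2 fold changes of -0.22 and -0.18. The same direction and threshold were reached by 7.88% of all genes tested. They were also reached by 12.4% of the 8985 genes whose mean level was at least 29.7 CPM, that of the lowest host. These 8985, termed genes at the level of the hosts, share only that lower bound and are not matched to the hosts. Both Degrader libraries lay below both DMSO libraries in all 10 hosts, a pattern found in 29.2% of all genes and 33.9% of those at the level of the hosts. With the replicate number as a block, edgeR called all 10 lower, against 15.7% of all genes and 23.1% of those at the level of the hosts.

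SNHG3 carries SNORA73A and SNORA73B, box H/ACA RNAs that act in processing of the small-subunit ribosomal RNA. It stood at 318 and 326 CPM in DMSO, 258 and 240 CPM under GDC0068, and 269 and 253 CPM under Degrader. All 4 treated libraries were lower than both controls, and the drug arms overlapped each other. SNHG3 fell under Degrader by 0.30 on the log2 scale (SE 0.0571, edgeR adjusted p = 0.00528) and under GDC0068 by 0.37 (SE 0.0572, edgeR adjusted p = 0.00916). The Degrader call was lost without Degrader replicate 2 (edgeR adjusted p = 0.0718), and the GDC0068 call without DMSO replicate 1, DMSO replicate 2 or GDC0068 replicate 2 (0.0623, 0.0634 and 0.0594).

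SNHG15, the host of SNORA9, gave 36.5 and 36.8 CPM in DMSO, 34.9 and 31.4 CPM under GDC0068, and 29.5 and 26.2 CPM under Degrader. The 3 arms did not overlap. SNHG15 fell under Degrader by 0.40 on the log2 scale, or 24.0% less transcription (SE 0.0811, edgeR adjusted p = 0.00799). Without DMSO replicate 1 or Degrader replicate 2 it was not called (edgeR adjusted p = 0.0564 and 0.0865). Under GDC0068 the value was -0.15 (edgeR adjusted p = 0.342).

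SNHG7, which holds SNORA17A and SNORA17B, had 225 and 226 CPM in DMSO, 240 and 204 CPM under GDC0068, and 174 and 194 CPM under Degrader. The GDC0068 libraries lay on either side of the controls, and the Degrader libraries lay below both other arms. SNHG7 fell under Degrader (log2 fold change -0.29, SE 0.0751, edgeR adjusted p = 0.0227) and had a value of -0.02 under GDC0068 (edgeR adjusted p = 0.897). The Degrader call did not hold without DMSO replicate 1, DMSO replicate 2 or Degrader replicate 1 (edgeR adjusted p = 0.102, 0.0832 and 0.159).

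SNHG8, the shortest interval and the host of SNORA24, gave 31.0 and 33.7 CPM in DMSO, 33.9 and 28.7 CPM under GDC0068, and 23.5 and 27.1 CPM under Degrader. Its libraries followed the same order as those of SNHG7. SNHG8 fell by 0.35 on the log2 scale with Degrader (SE 0.0993, edgeR adjusted p = 0.0333). The same 3 omissions as for SNHG7 ended the call (edgeR adjusted p = 0.0831, 0.164 and 0.190). With GDC0068 the change was -0.05 (edgeR adjusted p = 0.823).

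Among the box C/D hosts, SNHG6 (ENSG00000245910, chr8:66921818-66925541, minus strand) carries SNORD87. It measured 73.8 and 75.4 CPM in DMSO, 65.4 and 59.98 CPM under GDC0068, and 56.9 and 58.8 CPM under Degrader, without overlap between arms. SNHG6 was, beside SNHG3, the host that fell with both drugs. With Degrader the log2 fold change was -0.37 (edgeR SE 0.0579, adjusted p = 0.00204). With GDC0068 the fold change was -0.25 (edgeR SE 0.0578, adjusted p = 0.0379), not called without DMSO replicate 1, DMSO replicate 2 or GDC0068 replicate 2 (edgeR adjusted p = 0.158, 0.165 and 0.169).

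SNHG16 holds SNORD1A, SNORD1B and SNORD1C. Its levels were 73.9 and 79.7 CPM in DMSO, 69.3 and 68.9 CPM under GDC0068, and 63.8 and 62.2 CPM under Degrader. The arms did not overlap, with Degrader lowest. SNHG16 fell under Degrader by 0.28 on the log2 scale (SE 0.0553, edgeR adjusted p = 0.00622), and its value under GDC0068 was -0.15 (edgeR adjusted p = 0.152; 0.0199 with the replicate block). The Degrader call was lost without DMSO replicate 2 or Degrader replicate 2 (edgeR adjusted p = 0.0528 and 0.0601).

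SNHG5, with SNORD50A and SNORD50B, gave 139 and 148 CPM in DMSO, 133 and 127 CPM under GDC0068, and 127 and 128 CPM under Degrader. Both drug arms lay below DMSO and overlapped each other. The decrease under Degrader was just past the threshold, at -0.17 (SE 0.0508, edgeR adjusted p = 0.0431). DESeq2 did not call it (adjusted p = 0.0854), nor did edgeR without any 1 of the 4 libraries (adjusted p between 0.0700 and 0.236, leaving out DMSO replicates 1 and 2). The GDC0068 value was -0.14 (edgeR adjusted p = 0.146; 0.00842 with the replicate block).

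SNHG1 encloses 8 box C/D snoRNAs, SNORD22 and SNORD25 to SNORD31. Its CPM values were 95.6 and 106 in DMSO, 110 and 94.0 with GDC0068, and 85.4 and 87.7 with Degrader. The Degrader libraries were the lowest, while the GDC0068 libraries spanned the controls. Its log2 fold change under Degrader was -0.22 (edgeR adjusted p = 0.0649; 0.00234 with the replicate block), and under GDC0068 it was 0.01 (edgeR adjusted p = 0.939).

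GAS5, named for its accumulation in growth-arrested cells, encloses the most snoRNAs of the 10 hosts: 10 of box C/D and 1 of box H/ACA. It stood at 158 and 159 CPM in DMSO, 147 and 131 CPM under GDC0068, and 124 and 125 CPM under Degrader. The 3 arms were separate, and the Degrader replicates nearly coincided. GAS5 fell under Degrader by 0.35 (log2, SE 0.0571, edgeR adjusted p = 0.00255), with -0.35 in each replicate. The GDC0068 value of -0.19 was not called (edgeR adjusted p = 0.0979), but edgeR did call it in 2 settings, the replicate block (adjusted p = 0.00127) and the omission of GDC0068 replicate 1 (-0.27, adjusted p = 0.0493).

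SNHG12, which holds SNORD99, SNORA61, SNORA44 and SNORA16A, had 71.7 and 73.6 CPM in DMSO, 77.8 and 67.1 CPM under GDC0068, and 65.7 and 62.3 CPM under Degrader. As in SNHG1, the GDC0068 libraries spanned the controls. The change under Degrader was -0.18 (edgeR adjusted p = 0.0990; 0.00611 with the replicate block) and that under GDC0068 was -0.01 (edgeR adjusted p = 0.977).

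GAS5 and SNHG6 kept their Degrader call in each of the 13 other settings tried. Leaving out a library, which lowers the degrees of freedom, reduced the 8 hosts called under Degrader to 4 without DMSO replicate 1, 4 without DMSO replicate 2, 5 without Degrader replicate 1 and 4 without Degrader replicate 2, while the median stayed between -0.33 and -0.28. By snoRNA kind, the hosts that fell under Degrader were 3 of the 4 with box C/D only, 4 of the 4 with box H/ACA only and 1 of the 2 with both. The difference between kinds was not tested.

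**Figure D2:**
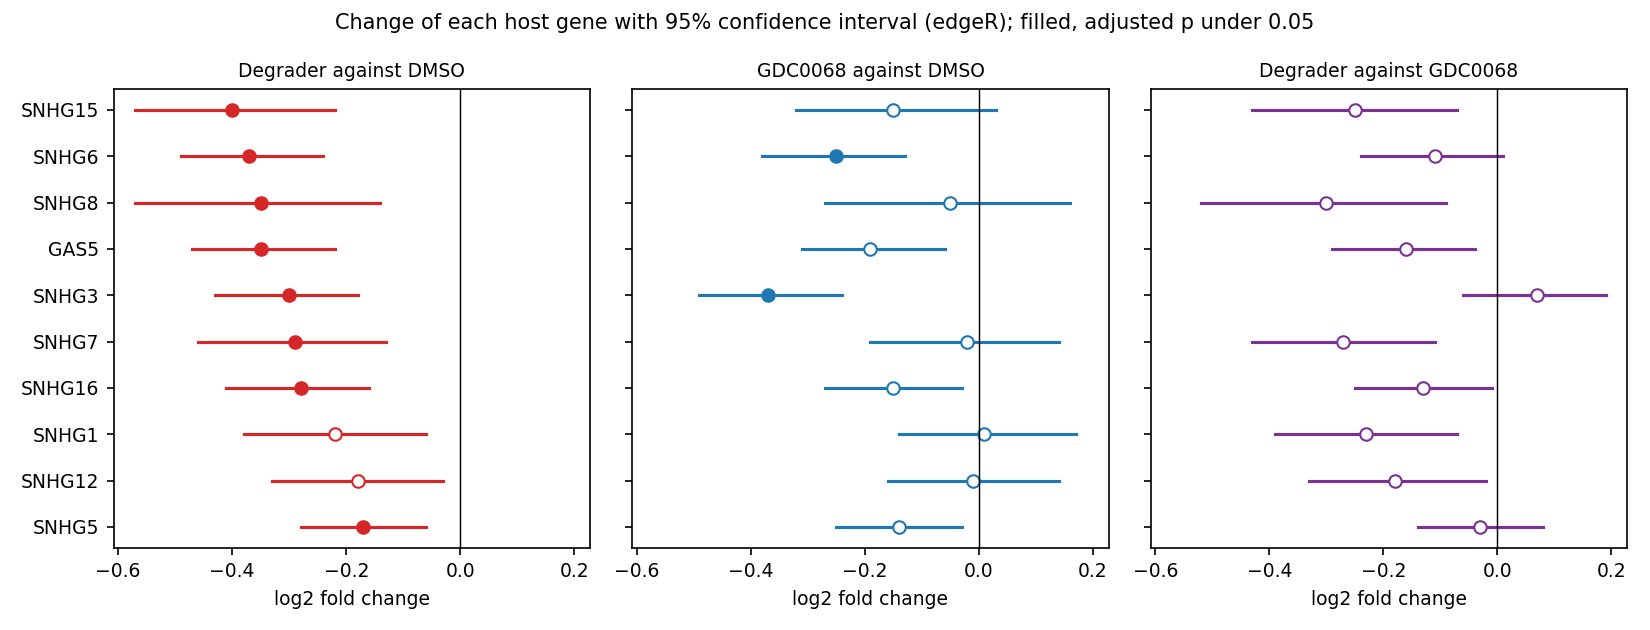
Log2 fold change of each host gene (points) with its 95% confidence interval (lines) from edgeR, in the comparisons of Degrader with DMSO, GDC0068 with DMSO and Degrader with GDC0068; filled points have an adjusted p under 0.05. Filled points number 8, 2 and 0 in the 3 panels, and the interval lies below 0 for every host under Degrader.

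Under GDC0068 most of the host genes were not called. The 2 hosts that fell were SNHG3 and SNHG6, against 1.88% of all genes tested that fell and 3.32% of those at the level of the hosts; 1.70% of all genes rose. The median log2 fold change of the 10 was -0.14, where that of all genes was 0.01. In 6 hosts both GDC0068 libraries were below both DMSO libraries, against 24.0% of all genes and 31.1% of those at the level of the hosts. With the replicate block 5 hosts were called lower by edgeR, namely GAS5, SNHG3, SNHG5, SNHG6 and SNHG16, against 8.91% of all genes and 15.7% of those at the level of the hosts.

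The replicates split in the other 4 hosts. SNHG1, SNHG7, SNHG8 and SNHG12 had positive log2 ratios to DMSO in replicate 1 (0.20, 0.09, 0.13 and 0.12) and negative ones in replicate 2 (-0.17, -0.15, -0.23 and -0.13). All 10 hosts were higher in replicate 1 than in replicate 2 under GDC0068, and all 10 were lower in replicate 1 than in replicate 2 in DMSO. Summed over the 10 hosts, the levels were 1221 and 1265 CPM in DMSO, 1169 and 1053 CPM under GDC0068, and 1018 and 1024 CPM under Degrader. Leaving out a library gave 0 hosts called under GDC0068 without DMSO replicate 1, 0 without DMSO replicate 2, 3 without GDC0068 replicate 1 and 0 without GDC0068 replicate 2. In the fit to the 4 libraries compared, SNHG3 alone was called.

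The arms of Degrader and GDC0068 were also set directly against each other, at their different doses. No host was called by edgeR (0 of 10). DESeq2 and limma-voom also called 0. Over all genes edgeR called 0.151% lower and 0.116% higher under Degrader, and 0.278% lower among those at the level of the hosts. The median log2 fold change of the hosts was -0.17, and both Degrader libraries lay below both GDC0068 libraries in 8 of 10, against 22.9% of all genes and 19.8% of those at the level of the hosts. SNHG8 differed by -0.30 (95% confidence interval -0.52 to -0.09, edgeR adjusted p = 0.211) and SNHG7 by -0.27 (-0.43 to -0.11, edgeR adjusted p = 0.151). SNHG15 differed by -0.25 (-0.43 to -0.07, edgeR adjusted p = 0.208) and SNHG1 by -0.23 (-0.39 to -0.07, edgeR adjusted p = 0.188). Without GDC0068 replicate 1 the differences were -0.18 for SNHG8, -0.15 for SNHG7, -0.17 for SNHG15 and -0.12 for SNHG1. For SNHG5 the difference was -0.03 with an interval from -0.14 to 0.08, and for SNHG3, the single host with a higher mean under Degrader, it was 0.07 with an interval from -0.06 to 0.19. With the replicate block 6 hosts were called lower under Degrader (GAS5, SNHG1, SNHG7, SNHG8, SNHG12 and SNHG15). The shares called lower were 5.35% of all genes and 6.69% of those at the level of the hosts. The block takes a replicate difference to be shared by the arms. All 10 hosts, however, were lower in replicate 1 in DMSO and higher in replicate 1 under GDC0068. The comparisons with DMSO share their control libraries, so the values of a host under the 2 drugs are not independent.

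Under Degrader both hosts with a divergent neighbour among the deposited intervals moved opposite to it. How often other divergent pairs do so was not tested. The start of ZBTB37, which encodes a zinc finger protein, lies on the plus strand 391 bp from the deposited start of GAS5. The RefSeq start of GAS5 lies 1056 bases from the deposited one, so this pairing rests on the deposited start. ZBTB37 stood at 39.9 and 41.5 CPM in DMSO, 47.4 and 46.9 CPM under GDC0068, and 50.8 and 51.9 CPM under Degrader, with no overlap between arms. It rose under Degrader by 0.34 on the log2 scale (SE 0.0575, edgeR adjusted p = 0.00316), where GAS5 fell. Under GDC0068 its value was 0.21 (edgeR adjusted p = 0.0668; 0.00591 with the replicate block).

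The start of AC015802.4, an unnamed transcript, lies 128 bp from that of SNHG16 on the opposite strand. It had 29.4 and 29.0 CPM in DMSO, 30.1 and 33.7 CPM under GDC0068, and 33.8 and 39.5 CPM under Degrader. AC015802.4 rose under Degrader (log2 fold change 0.33, SE 0.0873, edgeR adjusted p = 0.0270), a call lost without DMSO replicate 1 (edgeR adjusted p = 0.137), DMSO replicate 2 (0.105) or Degrader replicate 2 (0.279). Called increases under Degrader made up 7.39% of all genes tested. Among the starts of the deposited intervals, no other host had such a neighbour within 1000 bp. Other annotated starts were not searched.

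**Figure D3:**
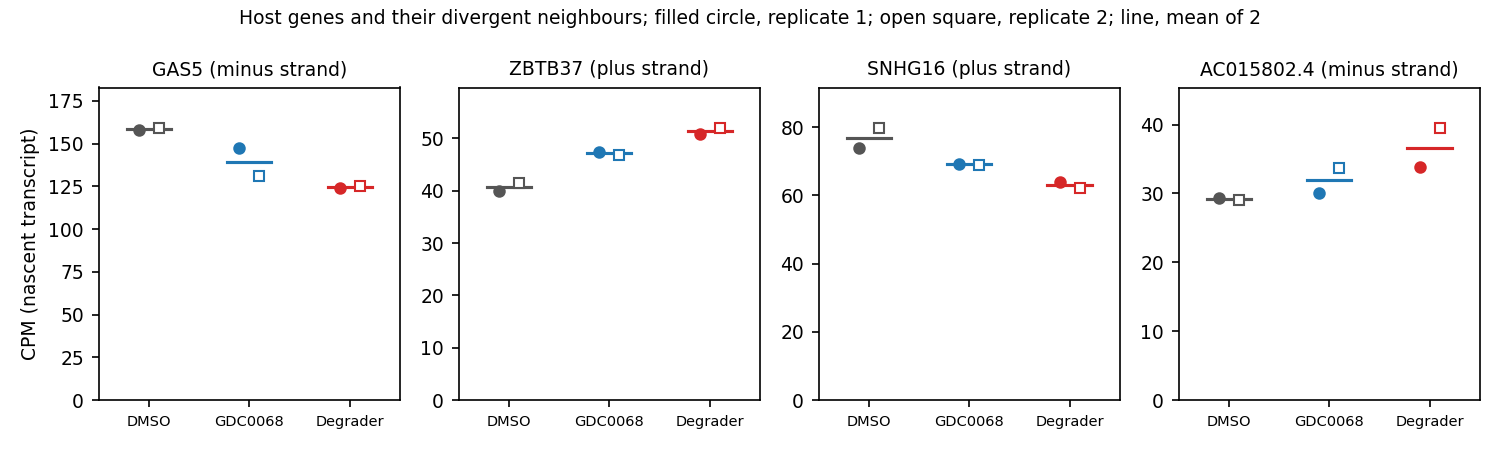
Level in CPM (counts scaled to library size) of GAS5 and SNHG16 and of their divergent neighbours ZBTB37 and AC015802.4 in the 6 libraries, with a filled circle for replicate 1, an open square for replicate 2 and a line at the mean of the 2; vertical axes start at 0. The hosts are lowest under Degrader and their neighbours highest.

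Some intervals overlap the hosts on the opposite strand, and whether strand was used in counting is not given in the sources used here. AC015802.6 shares 1612 bp with SNHG16 and had a log2 fold change of 0.04 under Degrader (edgeR adjusted p = 0.771). GAS5-AS1 shares 41 bp with GAS5 (0.10, edgeR adjusted p = 0.570), DIPK1B 85 bp with SNHG7 (-0.18, edgeR adjusted p = 0.349) and TRNAU1AP 8 bp with SNHG12 (0.00, edgeR adjusted p = 0.983).

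The table also has its own rows for 10 snoRNA intervals inside 5 of the hosts, with 63 to 226 counts each. Several extend beyond the snoRNA itself, and those of SNORA61, SNORA44 and SNORA16A overlap in turn within SNHG12, as do those of SNORD1A and SNORD1B within SNHG16. Read density in these rows was below the average of the host, from 0.20 (SNORA17B in SNHG7) to 0.88 times (SNORA73B in SNHG3) in the pooled DMSO libraries. Under Degrader all 10 had negative log2 fold changes, from -0.56 to -0.13 with a median of -0.27. The 1 called lower, a share near the 7.88% of all genes, was SNORA44, which gave 5.94 and 6.47 CPM in DMSO, 7.71 and 6.87 CPM under GDC0068, and 4.49 and 4.56 CPM under Degrader. Its decrease of 0.45 (log2, SE 0.140, edgeR adjusted p = 0.0496) was not called by DESeq2 (adjusted p = 0.127), limma-voom (adjusted p = 0.0603) or in any fit with 1 of the 4 libraries left out (edgeR adjusted p between 0.122 and 0.185, the ends being the omissions of DMSO replicates 1 and 2). Under GDC0068 edgeR called 0 of the 10, with 0 at an unadjusted p under 0.05, and DESeq2, limma-voom and the replicate block also called 0. With DMSO as reference the block called 2 of the 10 under Degrader, a share near the 15.7% of all genes. Between the drugs 5 of the 10 were negative, with a median of -0.06 and values up to 0.14 (SNORA73B). The lowest were in SNHG12, where SNORA44 differed by -0.68 (edgeR adjusted p = 0.0727; 0.00180 with the replicate block) and SNORA16A by -0.81 (edgeR adjusted p = 0.111; 0.00468 with the block), while SNORD99 in the same host was at 0.07 and SNHG12 as a whole at -0.18. Subtracting the snoRNA rows from their hosts left 8, 2 and 0 hosts called in the 3 comparisons. For SNHG12 this moved the log2 fold change from -0.18 to -0.12 under Degrader (edgeR adjusted p = 0.291) and from -0.18 to -0.07 between the drugs (edgeR adjusted p = 0.691); reads in the overlap of its snoRNA rows may have been subtracted more than once.

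Other genes of snoRNA production were taken as 3 lists, also chosen with earlier results of these data known. Of 19 further noncoding hosts, 16 were tested, and 9 fell under Degrader while 0 rose (11 and 0 with the replicate block), with a median log2 fold change of -0.23. The shares of all genes that fell were 7.88%, and 15.7% with the block. SNHG29 went from 47.6 and 51.4 CPM in DMSO to 33.2 and 31.0 CPM under Degrader, a change of -0.62 (edgeR adjusted p = 4.05e-04). SNHG17 changed by -0.50 (edgeR adjusted p = 4.44e-04) under Degrader and by -0.37 under GDC0068 (edgeR adjusted p = 0.00955). With GDC0068, SNHG17, SNHG29 (-0.31, edgeR adjusted p = 0.0399) and ZFAS1 (-0.32, edgeR adjusted p = 0.0124) were the 3 that fell, against 1.88% of all genes. With the block 8 fell, against 8.91% of all genes, and SNHG11 rose (0.19, edgeR adjusted p = 0.0239). Without DMSO replicate 1, DMSO replicate 2 or Degrader replicate 2 the Degrader count was 3, 5 or 3, and without DMSO replicate 1, DMSO replicate 2 or GDC0068 replicate 2 the GDC0068 count was 0, 1 or 0.

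Protein-coding genes that carry snoRNAs in their introns, most of them ribosomal protein genes, had a similar median. Of 35, 24 fell under Degrader and 0 rose (32 and 0 with the replicate block), against 7.88% of all genes that fell (15.7% with the block). Their median was -0.31, and both Degrader libraries lay below both DMSO libraries in all 35, against 29.2% of all genes. HSPA8, a constitutive chaperone gene with SNORD14 copies in its introns, went from 242 and 265 CPM in DMSO to 168 and 163 CPM under GDC0068 and 152 and 155 CPM under Degrader. It fell by 0.72 under Degrader (edgeR adjusted p = 5.73e-05) and by 0.61 under GDC0068 (edgeR adjusted p = 6.58e-04). RPL23A, of the large ribosomal subunit, fell by 0.48 (edgeR adjusted p = 2.51e-04) and by 0.28 (edgeR adjusted p = 0.0138). Under GDC0068 9 of 35 fell, with a median of -0.11, against 1.88% of all genes. With the replicate block 15 fell and 1 rose, against 8.91% of all genes that fell. The count that fell was 1 without DMSO replicate 1, 1 without DMSO replicate 2, 4 without GDC0068 replicate 1 and 1 without GDC0068 replicate 2. The Degrader count was 15 without Degrader replicate 2. Directly between the drugs RPL7A, of the large ribosomal subunit, was lower under Degrader (-0.38, edgeR adjusted p = 0.0474). It was not called by limma-voom (adjusted p = 0.0580), in the fit to the 4 libraries compared (edgeR adjusted p = 0.0751) or without GDC0068 replicate 1, Degrader replicate 1 or Degrader replicate 2 (edgeR adjusted p = 0.338, 0.165 and 0.318). With the replicate block 21 of the 35 were called lower between the drugs, against 5.35% of all genes. Among the 16 noncoding hosts 0 were called between the drugs by edgeR. With the block 7 of the 16 were called lower, beside the same 5.35%.

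The last list held genes of the proteins that bind and assemble snoRNAs. Of 17 genes, of which NOP56 and DKC1 are also in the list of protein-coding hosts, 5 fell under Degrader (NOP56, NOP58, DKC1, RUVBL1 and NOLC1) and 4 under GDC0068 (NOP56, NOP58, RUVBL1 and NOLC1), while 0 rose under either. Of all genes tested, 7.88% and 1.88% fell. The list medians were -0.16 and -0.15, and the difference between lists was not tested. NOP56, a core protein of box C/D particles, fell by 0.44 under Degrader (edgeR adjusted p = 5.38e-04) and by 0.26 under GDC0068 (edgeR adjusted p = 0.0273). NOLC1, a nucleolar chaperone of both particle kinds, fell by 0.48 (edgeR adjusted p = 6.18e-04) and by 0.36 (edgeR adjusted p = 0.0113). NOP58, DKC1 and RUVBL1 are named after their values were seen. With the block the Degrader count was 9 (15.7% of all genes) and the GDC0068 count was 6 (8.91% of all genes). The Degrader count was 2 without DMSO replicate 1 or Degrader replicate 2. Leaving out DMSO replicate 1, DMSO replicate 2, GDC0068 replicate 1 or GDC0068 replicate 2 gave 0, 1, 1 or 0 under GDC0068, and DESeq2 or the fit to the 4 libraries compared gave 2.

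**Figure D4:**
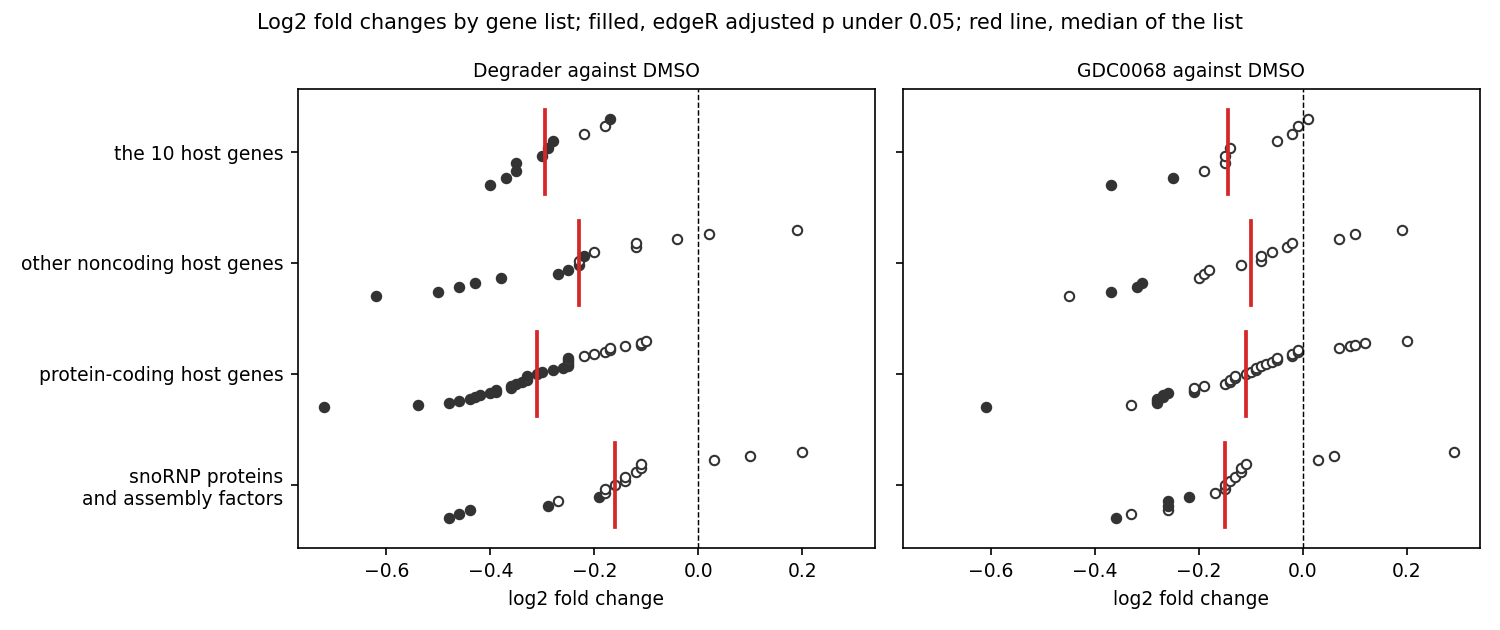
Log2 fold change of each gene of 4 lists against DMSO, for Degrader on the left and GDC0068 on the right; filled points have an edgeR adjusted p under 0.05 and red lines are list medians. Under Degrader the medians are -0.30 for the 10 host genes, -0.23 for other noncoding hosts, -0.31 for protein-coding hosts and -0.16 for snoRNP proteins and assembly factors.

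The genes whose levels over the 6 libraries were most like the mean of the 10 hosts, of 13887 that averaged 10 CPM or more, were PABPC1 (Pearson's r = 0.998), RNF2 (0.996) and AL139220.2 (0.994). These values describe 6 libraries in 3 arms, the same libraries for every gene. PABPC1 encodes the cytoplasmic poly(A)-binding protein and had 177 and 182 CPM in DMSO, 175 and 162 CPM under GDC0068, and 158 and 158 CPM under Degrader. RNF2, of the Polycomb repressive complex that ubiquitinates histone H2A, had 39.1 and 40.2 CPM in DMSO, 38.5 and 36.2 CPM with GDC0068, and 35.3 and 35.0 CPM with Degrader. As these genes were picked for tracking the hosts, no test of their change is given.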

How the data were processed

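PRO-seq libraries of T47D cells (3 arms, 2 libraries each) were analysed from the raw counts per gene interval deposited by the authors in a single table. The submitters' processing notes name cutadapt 1.14, Bowtie 1.2.2, SAMtools 1.3.1, HISAT2 2.2.1 and limma, and the builds hg38, GRCh38 and dm3, without roles; the counting tool, use of strand, duplicate removal and the counted part of a gene are not given in the sources used here. Duplicates, where kept, make counting error look too small.

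Counts were fitted in R 4.3.3 with edgeR 4.0.16 (TMM scaling, filterByExpr with a minimum count of 10 and total of 15, quasi-likelihood test, 1 term per arm, all 6 libraries, 3 residual degrees of freedom), which left 19902 genes. The adjusted p is Benjamini-Hochberg over these genes, and below 0.05 a gene is called. Each SE is the log2 fold change divided by the square root of F. CPM values use TMM-scaled library sizes. P-values rest on the spread between the 2 libraries of an arm, pooled over the 3 arms. In edgeR this spread is also moderated with that of the other genes. The fit was checked on simulated counts. DESeq2 1.42.0 and limma 3.58.1 (voom) were alternatives.

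Replicate numbers were read as the 2 independent experiments, which the labels do not state. Deviations of libraries with the same number from their arm means correlated weakly across genes (0.177 for DMSO and GDC0068, 0.220 for DMSO and Degrader, 0.204 for GDC0068 and Degrader). All 10 hosts, however, were lower in replicate 1 than in replicate 2 in DMSO and higher in replicate 1 under GDC0068. Blocked values rest on this reading and are given beside host values and counts that they change.

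Starts of intervals count from 1. RefSeq tables (GRCh38.p14) gave snoRNA positions and promoters. Host genes and lists were chosen with earlier results of these data known. Beside the hosts, genes named were divergent neighbours, snoRNA intervals inside hosts, up to 2 called genes per list, direction and comparison with the smallest adjusted p, and the 3 genes most like the mean host level. Not every gene that this rule names is reported here.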

Additional observations from a re-analysis of the deposited data

How the results depend on the processing

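Over the 13 other settings per comparison, 345 of 390 host values kept their direction and side of the threshold, 23 lost a call, 14 gained one and 8 changed sign. Size factors by relative log expression, library totals, no filter on low counts, robust estimation, limma-voom and subtraction of snoRNA counts changed no host call. The replicate block changed the number of hosts called from 2 to 5 under GDC0068 and from 0 to 6 between the drugs, and gained SNHG1 and SNHG12 under Degrader. In the fit to the 4 libraries compared, 1 host was called under GDC0068, and SNHG1 and SNHG12 were gained under Degrader. DESeq2 lost SNHG5 under Degrader. With a library left out, hosts called ranged from 4 to 5 under Degrader and from 0 to 3 under GDC0068, and were 0 between the drugs; the medians ranged from -0.33 to -0.28, from -0.17 to -0.09 and from -0.25 to -0.10. These fits assume that a lone library varies like the other arms. Over all genes edgeR called 3039 under Degrader (6114 with the block, 931 to 1829 with a library left out), 712 under GDC0068 (3540 and 37 to 296) and 53 between the drugs (2065 and 5 to 63; 23 with 4 libraries, 116 with robust estimation, 141 by DESeq2).

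Sign changes were confined to values near 0 that were not called. Under GDC0068, SNHG1 became -0.06 without DMSO replicate 1 and -0.10 without GDC0068 replicate 1, with 0.12 without GDC0068 replicate 2 as its other end. SNHG8 and SNHG12 both became 0.01 without DMSO replicate 2, and 0.06 and 0.09 without GDC0068 replicate 2, where SNHG7 became 0.08; without GDC0068 replicate 1, SNHG12 was at -0.12 and SNHG7 at -0.15. Between the drugs, SNHG5 became 0.01 without GDC0068 replicate 1 and was -0.05 without GDC0068 replicate 2. The cause was not tested. The same settings were applied to the other named genes and lists after their values had been seen: none of those genes changed sign, 69 of their values lost a call, 6 gained one and 367 did neither, while 42 list counts moved by over 1.5 times and 114 did not. Counting error per host and library was 0.99% to 3.85%, beside a common biological coefficient of variation of 5.51% over all genes.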
